A study of Mus musculus with 4 samples.

Results

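The cytosolic ribosomal protein genes encode the protein components of the large (60S) and small (40S) ribosomal subunits. Members were chosen by symbol among RefSeq protein-coding genes of the mouse build GRCm38.p6 (mm10): Rpl or Rps followed by a digit, with Rplp0, Rplp1, Rplp2 and Rpsa, and without the S6 kinases, Rps19bp1 and symbols that end in l or like. This gave 82 of 21887 protein-coding genes, 49 of the large and 33 of the small subunit by symbol. Of these, 5 carry names of retrocopies (Rpl31-ps12, Rpl34-ps1, Rpl37rt, Rps27rt and Rps23rg1), and a place in the ribosome is not given for them here. ChIP-seq for BRG1/BRM had been carried out on primary cortical neurons of wild-type E16.5 mouse embryos. The J1 antibody recognises both BRG1 and BRM, the ATPase subunits of the BAF chromatin remodelling complex. KCl cultures had received 1 µM TTX, which blocks sodium channels, and 100 µM APV, an NMDA receptor antagonist, on day 5, and then 50 mM KCl for 1 h on day 6. Basal cultures were kept at the basal KCl level, and the labels do not say whether they received the blockers, nor how many embryos went into a culture. Each condition had 1 immunoprecipitation (IP) library and 1 input library.

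Ribosomal protein genes are transcribed at high rates in nearly all cells, since every ribosome needs a copy of each protein. Their messenger RNAs typically begin with a C followed by a run of pyrimidines, the 5′ terminal oligopyrimidine (TOP) tract, through which mTOR signalling controls their translation. Their mammalian promoters are short, often GC-rich, and often hold binding sites of ETS-family factors, SP/KLF factors and YY1. In neurons, ribosomal proteins are made in the cell body and also from messenger RNAs carried into axons and dendrites.

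The enriched regions, called islands, came as a list of 20966 for KCl and 711 for basal neurons, with IP reads, control reads and fold over control for each. KCl islands held 1433200 IP and 400612 control reads, and basal islands 142021 IP and 130865 control reads. Total reads per library, and the input behind each list's control reads, are not stated in the sources used here. The fewest IP reads in an island were 20 in KCl and 18 in basal neurons. Since each condition is 1 library, differences between KCl and basal are descriptions of these libraries, without replicates and without p-values. In a bulk culture, more cells with bound BRG1/BRM and more binding per cell cannot be told apart. Of 12 neuronal marker genes, 10 had a KCl island no farther than 2 kb from either end of the gene, Tubb3, Map2 and Snap25 among them and Rbfox3 not. Such islands stood at 2 of 4 astrocyte, 0 of 4 microglia, 1 of 4 oligodendrocyte lineage and 1 of 4 liver and muscle genes, and no marker had a basal one. Of all protein-coding genes, 25.2% had such a KCl island, and sets of 4 genes are too small to be told apart from that share.

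The promoters below show what the annotated starts of the family look like at both ends of the ranking. The first 4 belong to members with the largest KCl folds among those with a single annotated promoter and an island over the start, and the last 2 to autosomal members with a single annotated promoter at the gene end and no KCl island for at least 110 kb. Each runs from 130 bases before the annotated start to 20 bases from it, 5′ to 3′ on the gene's strand, from RefSeq (GRCm38.p6). Capitals mark ETS-type (CCGGAAG) and SP/KLF-type (GGGCGG) letters on either strand, and a pyrimidine run that opens with a C within 5 bases of the annotated start.
Rpl5 (chr5:107900398-107900547, plus strand): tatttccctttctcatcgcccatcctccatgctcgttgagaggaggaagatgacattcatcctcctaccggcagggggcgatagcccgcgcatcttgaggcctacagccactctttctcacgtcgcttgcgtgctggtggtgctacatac
Rpl41 (chr10:128549149-128549298, minus strand): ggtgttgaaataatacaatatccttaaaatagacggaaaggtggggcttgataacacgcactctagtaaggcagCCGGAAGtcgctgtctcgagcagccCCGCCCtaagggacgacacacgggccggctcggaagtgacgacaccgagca
Rps16 (chr7:28350559-28350708, plus strand): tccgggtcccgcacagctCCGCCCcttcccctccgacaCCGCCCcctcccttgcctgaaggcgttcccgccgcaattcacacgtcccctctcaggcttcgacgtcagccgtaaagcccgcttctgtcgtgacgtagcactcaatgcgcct
Rps6 (chr4:86857348-86857497, minus strand): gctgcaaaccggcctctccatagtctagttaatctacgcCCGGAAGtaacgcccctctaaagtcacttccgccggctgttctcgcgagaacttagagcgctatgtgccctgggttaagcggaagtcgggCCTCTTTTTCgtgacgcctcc
Rpl28 (chr7:4792835-4792984, plus strand): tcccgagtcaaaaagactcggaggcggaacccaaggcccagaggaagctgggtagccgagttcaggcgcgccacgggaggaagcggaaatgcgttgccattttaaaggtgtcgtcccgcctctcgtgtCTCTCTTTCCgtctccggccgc
Rpl37a (chr1:72711130-72711279, plus strand): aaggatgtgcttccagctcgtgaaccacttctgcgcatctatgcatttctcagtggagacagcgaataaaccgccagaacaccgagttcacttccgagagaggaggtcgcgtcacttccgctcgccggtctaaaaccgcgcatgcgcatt
Rps6 and Rpl28 carry a TOP-like run at the annotated start, Rpl41 and Rps6 an ETS-type match, and Rpl41 and Rps16 SP/KLF-type matches. Rpl5 and Rpl37a hold no ETS-type or SP/KLF-type match in the bases shown, and no such run at the annotated start used. For Rpl5 that start lies 20 bases inside the gene end. A pyrimidine run that opens with a C begins at the gene end itself and is not in capitals. Matches of this kind are a description of letters and were found both with and without an island.

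After depolarization, BRG1/BRM islands lay at the ends of ribosomal protein genes of both subunits, and basal neurons had a single such call in a much shorter list. Among the 711 KCl islands with the lowest p or the largest fold, as many as the basal list holds, none lay within 2 kb of an end of a member (0 of 82), whereas the basal list called 1. Of all genes, 0.114% were called by p and 0.0685% by fold in these shortened KCl lists. Shares this low cannot show whether the difference in counts depends on list length, and it is given for the lists as deposited only. In KCl, 31 of 82 members (37.8% [27.3 to 49.2], 95% exact interval) had an island at most 2 kb from an end of the gene, where 25.2% of all protein-coding genes did. In basal neurons, 1 of 82 members (1.22% [0.0309 to 6.61]) had one, that of Rps29, where 0.411% of all genes did. Ribosomal protein genes are short, with a median of 3170 bp against 17169 bp for all protein-coding genes, and range from 374 to 16779 bp. Among the 10756 protein-coding genes within that length range, 16.9% had such a KCl island. When the other genes were weighted to the length deciles of the members, the share was 15.9% in KCl, which would be 13.1 of 82, and 0.362% in basal neurons. The members' interval thus lies above the share of genes of their length, and the comparison with genes of the same promoter class is given further on. With islands held to an FDR of at most 1e-05, 14 of 82 members remained (17.1% [9.66 to 27]), close to 15.1% of all genes and with an interval above 9.49% of length-range genes. With islands of at least 2-fold, 10 of 82 remained (12.2% [6.01 to 21.3]), compared with 8.74% of all genes and 5.47% of length-range genes. None of the 5 members with retrocopy names had an island, which leaves 31 of 77 (40.3% [29.2 to 52.1]) without them.

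**Figure D1:**
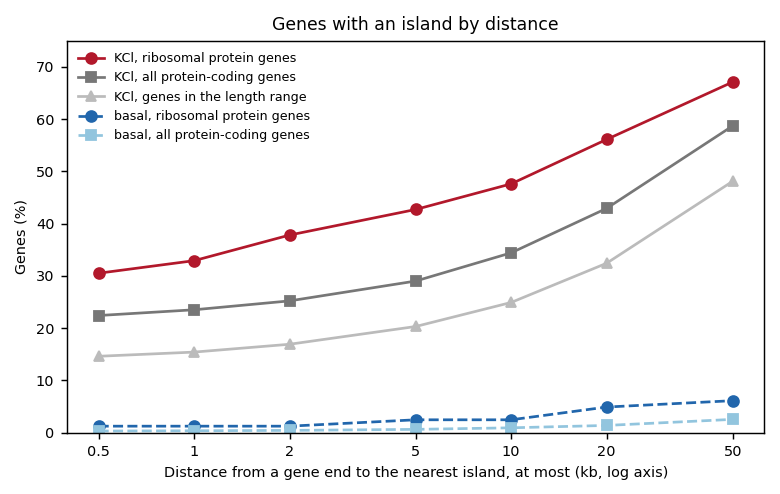
Share of genes (%) whose nearest island lies within a given distance of a gene end (kb, log axis), for KCl (solid lines) and basal neurons (dashed lines), in ribosomal protein genes, all protein-coding genes and, for KCl, genes in the members' length range. In KCl the members run from 30.5% at 0.5 kb to 67.1% at 50 kb, above the 22.4% and 58.7% of all genes at the same distances.

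At the other distances examined, the members' share in KCl was also above that of all genes, given without intervals. Within 0.5 kb of a gene end, 25 members had a KCl island (30.5%, all genes 22.4%), and within 10 kb 39 did (47.6%, all genes 34.4%). The same 39 members were counted for the gene body with 10 kb around it (47.6% [36.4 to 58.9]). That interval includes the 38.9% of all genes that had a KCl island there. Of these 39 members, 31 had their island within 2 kb of an end. In basal neurons 2 of 82 members had an island in the body or within 10 kb, where 1.68% of all genes did, namely Rps29 and Rps15. The members are close to that basal background, and their counts of 1 and 2 allow no more than their values.

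**Figure D2:**
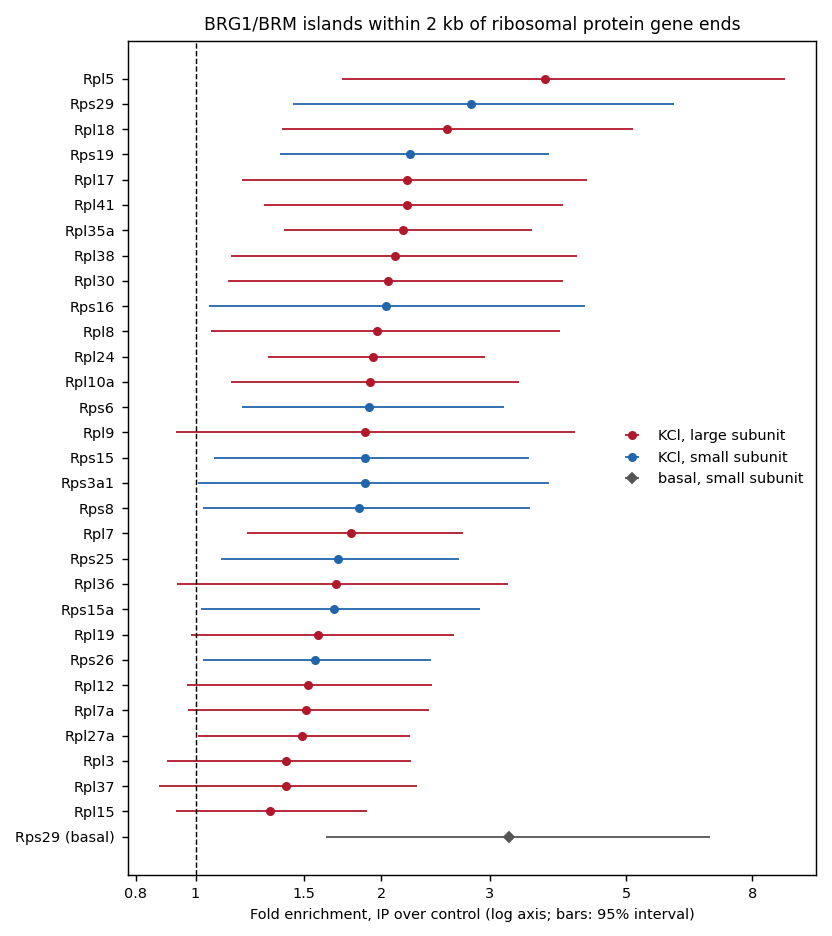
Deposited fold enrichment of IP over control (log axis) for the best island within 2 kb of each of 30 ribosomal protein genes in KCl, by subunit, and for the single basal island at Rps29, with 95% exact intervals from both read counts. Folds lie between 1.32 at Rpl15 and 3.69 at Rpl5, and 8 intervals reach below 1.

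Enrichment at these islands was modest. The median fold of the best island per member was 1.88 in KCl, with an interval of the median of 1.68 to 2.04 (31 members), and KCl islands at the ends of any protein-coding gene had a median of 1.82. Islands at member ends were narrower, with a median width of 1900 bp against 2400 bp at the ends of any gene. Their IP density was 30.7 reads per kb in the median, against 29.4 reads per kb at any gene end, and their control density 10.8 against 10 reads per kb. With both read counts allowed to vary, the fold's interval lay above 1 at 22 of 31 members (71.0% of the best islands), against 76.1% of all islands at gene ends. Members whose interval included 1 were mostly of the large subunit (8 of 20 there), namely Rpl3, Rpl7a, Rpl9, Rpl12, Rpl15, Rpl19, Rpl36 and Rpl37. Large subunit members were called in 20 of 49 cases (40.8% [27 to 55.8]) and small subunit members in 11 of 33 (33.3% [18 to 51.8]), with overlapping intervals. The median fold was 1.90 in the large and 1.88 in the small subunit.

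Among large subunit genes, the strongest island was that of Rpl5, whose protein binds the 5S rRNA and, outside the ribosome, the p53 regulator MDM2. It held 47 IP and 8 control reads in KCl (3.69-fold [1.73 to 9.04], chromosome 5, 107900401 to 107901600), and no basal island was called. Rpl11, which encodes the partner of Rpl5 in the 5S ribonucleoprotein, had no island in either list, and its nearest KCl island lay 61.4 kb away. Of this pair, then, Rpl5 alone was called. Rpl3 and Rpl8 encode proteins near the peptidyl transferase centre. The island at Rpl3 held 67 IP and 30 control reads in KCl (1.40-fold [0.899 to 2.24]). That at Rpl8 held 44 IP and 14 control reads (1.97-fold [1.06 to 3.90]). Of genes for proteins that line the exit tunnel, Rpl17 had 49 IP and 14 control reads (2.20-fold [1.19 to 4.31]), at an island outside the gene and nearer to BC031181, and Rpl4 had none within 73.8 kb. The stalk genes Rplp0, Rplp1 and Rplp2, whose products recruit translational GTPases, had no island within 2 kb in either list. Rpl12, which encodes a protein at the base of the stalk, had a KCl island 1756 bp beyond its far end (70 IP and 29 control reads, 1.52-fold [0.970 to 2.42]).

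Further large subunit members with the larger KCl folds were Rpl18, Rpl41, Rpl35a, Rpl38 and Rpl30. Rpl18 had 53 IP and 13 control reads in KCl (2.56-fold [1.38 to 5.12]), at an island within the gene that lay nearer to an end of Sphk2. Rpl41, which encodes the smallest ribosomal protein, was the only member with 2 KCl islands within 2 kb. The island over its start held 63 IP and 18 control reads (2.20-fold [1.29 to 3.94]), at 63.0 IP reads per kb, and the other held 66 IP and 30 control reads (1.38-fold [0.885 to 2.20]). That second island lay 110 bp beyond the far end of this 1059 bp gene and nearer to Zc3h10. At Rpl35a, 90 IP and 26 control reads were counted in KCl (2.17-fold [1.39 to 3.51]), at an island beyond the gene and nearer to Lmln. At Rpl38, needed for translation of a subset of Hox messenger RNAs in the mouse embryo, the counts were 47 IP and 14 control reads (2.11-fold [1.14 to 4.15]). Rpl30 had 49 IP and 15 control reads (2.05-fold [1.13 to 3.94]). None of these 5 members had a basal island.

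The smallest folds and the widest islands were also found in the large subunit. Rpl15 had 103 IP and 49 control reads over 3800 bp (1.32-fold [0.931 to 1.90]). Rpl37 had 60 IP and 27 control reads over 2400 bp (1.40-fold [0.872 to 2.29]). Rpl27a had 90 IP and 38 control reads over 3800 bp (1.49-fold [1.01 to 2.23]). The islands of Rpl15 and Rpl27a were wider than the median of 1800 bp and held more control reads than the median of 22. The widest island of the family, 4200 bp, lay 964 bp beyond Rpl24 and held 105 IP and 34 control reads (1.94-fold [1.31 to 2.95]). Rpl7a, which hosts 4 snoRNA genes, had 72 IP and 30 control reads (1.51-fold [0.972 to 2.39]).

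Among small subunit genes, Rps29 and Rps19 led in KCl. Rps19, the gene most often mutated in Diamond-Blackfan anaemia in humans, had 78 IP and 22 control reads in KCl (2.23-fold [1.37 to 3.75], chromosome 7, 24883601 to 24886200) and no basal island. Rps26, a further gene of that disease, had 82 IP and 33 control reads over 3400 bp (1.56-fold [1.03 to 2.41]). Rps6 encodes the protein phosphorylated by the S6 kinases after neuronal activity. Its island ran over almost the whole gene, with 73 IP and 24 control reads (1.91-fold [1.19 to 3.17], chromosome 4, 86854201 to 86857400). Rps16, with 39 IP and 12 control reads (2.04-fold [1.05 to 4.28]), and Rps25, with 81 IP and 30 control reads (1.70-fold [1.10 to 2.67]), were covered at the start as well. Rps15, which encodes a protein near the decoding centre, had 51 IP and 17 control reads in KCl (1.88-fold [1.07 to 3.48]) at an island beyond the gene and nearer to Apc2. Its basal island lay 4287 bp from the gene, held 58 IP and 46 control reads, and was 1.43-fold enriched with an interval that included 1 [0.956 to 2.16]. That basal island overlapped a further KCl island 4687 bp from Rps15 (120 IP and 54 control reads, 1.40-fold [1.00 to 1.96]).

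Rps29, which encodes a zinc-binding protein of the small subunit, was the only member with an island at a gene end in both lists. The KCl island held 49 IP and 11 control reads (2.80-fold [1.44 to 5.97], chromosome 12, 69159201 to 69160000). The basal island held 34 IP and 12 control reads (3.22-fold [1.63 to 6.83], 69158801 to 69159800). The intervals of the KCl and basal folds overlap, and each fold is relative to its own list's control. At 3.22-fold the basal island had the largest fold among the 84 basal islands at gene ends. Neither island lay over Rps29 alone. Rn7s1, a gene of the 7SL RNA of the signal recognition particle, which RNA polymerase III transcribes, begins 109 bp beyond the end of Rps29, and both islands covered it. The KCl island began 15 bp outside Rps29 and did not touch the gene. The basal island overlapped it. Which of these neighbours the signal belongs to was not tested.

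**Figure D3:**
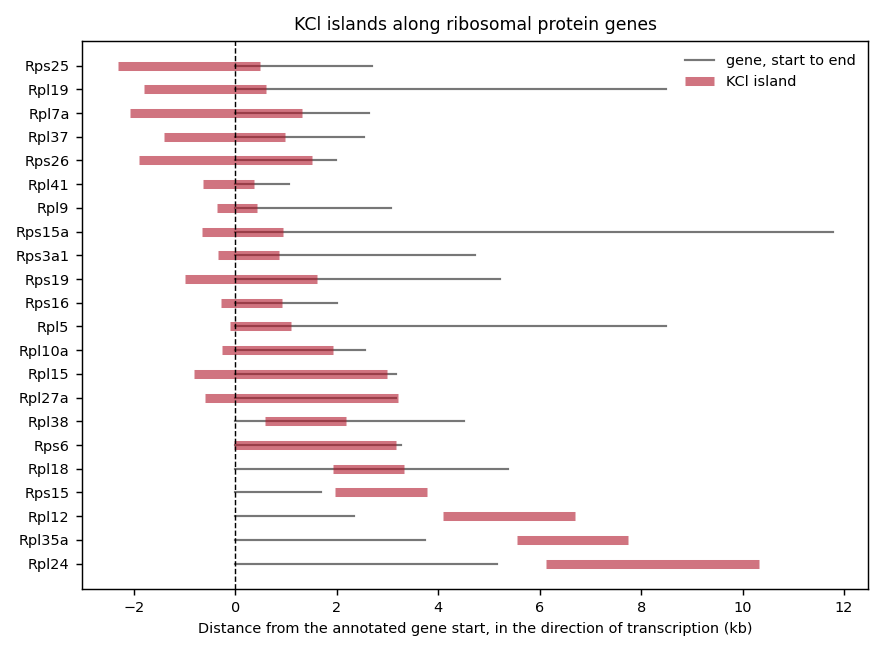
KCl islands (red bars) along 22 ribosomal protein genes whose strand is known (grey lines, start to end), as distance from the annotated gene start in kb in the direction of transcription. The island covers the start in 16 of the 22, and in Rps15, Rpl12, Rpl35a and Rpl24 it lies wholly beyond the gene.

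Where the strand was known, KCl islands lay mostly over the gene start. A promoter entry gave the strand for 61 of 82 members. Of these, 16 (26.2% [15.8 to 39.1]) had a KCl island over the annotated start, where 19.4% of all genes with a strand did. Among the 22 called members with a strand, the best island covered the start in 16. Its centre lay a median of 207 bp downstream of the start in those, downstream in 10 and upstream in 6. Of the remaining 6, those of Rpl18 and Rpl38 lay inside the gene, and those of Rpl12, Rpl24, Rpl35a and Rps15 beyond its far end. An island lay within 2 kb of the far end in 13 of 61 members (21.3% [11.9 to 33.7]), where 6.30% of genes in the same length range did. In genes this short, an island over the start can lie within 2 kb of the far end too, and with a limit of 500 bp the count was 6.

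Many ribosomal protein genes lie close to other genes, so an island at their end can be a neighbour's. Another protein-coding gene ended within 2 kb of 41 of 82 members (50.0% [38.7 to 61.3]), compared with 32.2% of all genes. KCl islands stood at 18 of these 41 members (43.9% [28.5 to 60.3]), where 27.1% of length-range genes that adjoin another gene were called. They stood at 13 of the 41 members that stand alone (31.7% [18.1 to 48.1]), where 11.6% of such genes in the length range were called. Each share of members had an interval above that of such genes in the length range, and the intervals of the 2 kinds of members overlap. Without a limit on length, 31.5% of genes that adjoin another and 22.2% of those that stand alone were called. Both of these values lie within the members' intervals. With 5 kb as the limit, 20 members stood alone and 5 of them were called (25% [8.66 to 49.1]), an interval that includes the 10.1% of such genes in the length range. Of the 31 best islands, 25 overlapped the member itself and 6 lay outside it, 15 to 1812 bp from its end. An end of another coding gene lay within 2 kb of the island in 17 of 31 cases, and nearer to the island than the member's end in 4 of these (Rpl17, Rpl18, Rpl35a and Rps15). A tie, as where an island covers ends of both genes, was not counted as nearer. A head-to-head neighbour with a start within 1 kb was found for 8 of 61 members (13.1% [5.84 to 24.2]), compared with 6.62% of all genes with a strand, and 3 of those 8 had a KCl island (37.5% [8.52 to 75.5]), where 36.6% of head-to-head genes in the length range did.

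Ribosomal protein genes are known hosts of snoRNAs, small RNAs that guide chemical modification of ribosomal RNA and are cut from introns. Here 30 of 82 members (36.6% [26.2 to 48]) held at least 1 annotated snoRNA, 59 in all, compared with 1.70% of all protein-coding genes. KCl islands stood at 11 of the 30 hosts (36.7% [19.9 to 56.1]) and at 20 of the 52 other members (38.5% [25.3 to 53]), where 39.8% of all snoRNA hosts were called. Hosts and other members therefore differed by less than their intervals, and the hosts among members lay near the value of all snoRNA hosts. The best island itself covered a snoRNA gene in 5 members.

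**Figure D4:**
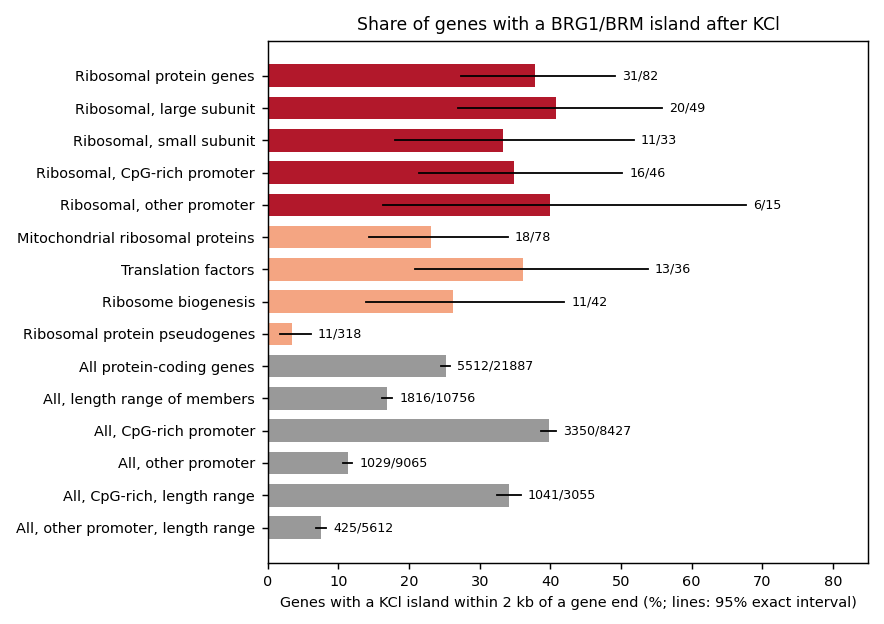
Share of genes (%) with a KCl island within 2 kb of a gene end, with 95% exact intervals (black lines) and counts, for ribosomal protein genes and their subsets (dark red), related gene lists (light red) and all protein-coding genes (grey). Members with a CpG-rich promoter (34.8%) sit beside all CpG-rich genes of their length (34.1%).

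Set beside genes of the same promoter class, CpG-rich members were called about as often as others, and the remaining members more often. A promoter was called CpG-rich when its 300 bases had a GC share of at least 0.5 and a CpG observed over expected ratio of at least 0.6. That held for 46 of 61 members (75.4% [62.7 to 85.5]), compared with 48.2% of all genes with a promoter entry. Of the 46 CpG-rich members, 16 had a KCl island (34.8% [21.4 to 50.2]), close to the 34.1% of CpG-rich genes in the length range and to the 39.8% of all CpG-rich genes. Their start was covered in 12 of 46 (26.1% [14.3 to 41.1]), compared with 28.2% of CpG-rich genes in the length range. Both values for other genes lie within the members' intervals. Of the 15 members with another promoter, 6 had a KCl island (40.0% [16.3 to 67.7]), where 11.4% of all such genes and 7.57% of those in the length range were called. These 6 were Rpl15, Rpl24, Rpl38, Rpl41, Rps25 and Rps26, named after their values were seen, and some lay just outside the class. Rpl15 had a CpG ratio of 0.596, and Rpl38 and Rpl41 a GC share of 49.3%. With the required ratio lowered to 0.4, 4 of 8 such members were called, where 5.77% of such genes in the length range were. These 4 were Rpl24, Rpl38, Rpl41 and Rps26, with GC shares of 47.7%, 49.3%, 49.3% and 44.3%. They stay outside the class by GC share alone, so a lower ratio could not move them. The GC limit was not varied, and how the result depends on it was not tested. The 21 members without a promoter entry were called in 9 cases (42.9% [21.8 to 66]), where 25.8% of all genes without an entry and 16.8% of those in the length range were.

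The members' promoters held ETS-type letters and TOP-like starts at higher shares than promoters at large, and called and uncalled members did so at similar shares. ETS-type letters (CCGGAAG or its reverse complement) were found in 24 of 61 members (39.3%), compared with 12.9% of all promoters and 21.3% of CpG-rich ones. They were present in 10 of 22 members with a KCl island (45.5%) and in 14 of 39 without (35.9%). A TOP-like start, a C followed by at least 4 pyrimidines within 5 bases of the annotated start, was found in 29 of 61 members (47.5%) and in 21.5% of all promoters. It was found in 11 of 22 called (50.0%) and 18 of 39 uncalled members (46.2%). Rpl5, whose run lies 20 bases before the start used, was counted as without one. SP/KLF-type letters (GGGCGG) were found in 35 of 61 members (57.4%), compared with 49.2% of all promoters and 79.0% of CpG-rich ones, in 15 of 22 called and 20 of 39 uncalled members. The TATA box letters TATAAA were found in 7 of 61 members (11.5%), compared with 14.8% of all promoters and 6.88% of CpG-rich ones. They were present in 0 of 22 called against 7 of 39 uncalled members. The cAMP response element TGACGTCA was found in 5 of 61 members (8.20%, all promoters 2.54%, CpG-rich ones 4.08%). The YY1-type letters AAGATGGCG were found in 3 (4.92%, all promoters 2.14%, CpG-rich ones 3.84%). AP-1 letters (TGACTCA or TGAGTCA), to which Fos and Jun bind, were found in 2 of 61 members (3.28%, all promoters 5.40%, CpG-rich ones 3.56%). The E-box CACGTG was found in 6 (9.84%, all promoters 8.91%, CpG-rich ones 13.1%).

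The 51 members without a KCl island at an end, 29 of the large and 22 of the small subunit, lay at widely varying distances from one. Their nearest KCl island was 2.57 to 544 kb away, with a median of 50.8 kb. It lay within 10 kb of 8 members and beyond 50 kb of 27. Among those 8 were Rpl23a, Rpl35, Rps9, Rps10, Rps23, Rps24 and Rps27rt. The large subunit genes without a call included Rpl6, Rpl10, Rpl11, Rpl13, Rpl13a, Rpl14, Rpl21, Rpl22, Rpl23, Rpl26, Rpl27, Rpl28, Rpl29, Rpl31, Rpl32, Rpl34, Rpl36a, Rpl37a and Rpl39. Farthest away were the 4 members on chromosome X, Rpl10, Rpl36a, Rpl39 and Rps4x, at 427 to 544 kb. KCl islands were sparse on that chromosome in general: 0 of 4 members and 3.11% of all 966 genes on X were called, compared with 31 of 78 members (39.7% [28.8 to 51.5]) and 26.5% of all genes on the autosomes. Absence of a call does not show absence of binding, since a gene below the threshold of the list leaves no reads in it.

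Other genes of the translation machinery, with S6 kinases by symbol, had KCl islands at shares from 10% (S6 kinases) to 36.1% (translation factors). These are the lists of at least 10 genes. Of all protein-coding genes 25.2% did, a share within the interval of each of these lists. A basal island at a gene end was called for 0 of the listed genes, where 0.411% of all genes had one. Mitochondrial ribosomal protein genes, found by the symbols Mrpl and Mrps, were called in 18 of 78 cases (23.1% [14.3 to 34]). Their largest folds were those of Mrpl15 (3.98-fold [2.29 to 7.39]), Mrps7 (3.30-fold [1.53 to 8.13]) and Mrps16 (2.70-fold [1.34 to 6.03]). The share of the cytosolic family was 37.8%, and its interval overlaps that of the mitochondrial one. The mitochondrial genes are longer, with a median of 7690 bp. Translation factors were called in 13 of 36 cases (36.1% [20.8 to 53.8]), led by Eif1, which acts in start codon selection (2.62-fold [1.37 to 5.40]), the poly(A)-binding protein gene Pabpc1 (1.95-fold [1.28 to 3.04]) and Eif4b (1.88-fold [1.07 to 3.48]). Ribosome biogenesis genes were called in 11 of 42 cases (26.2% [13.9 to 42]), led by Gar1 (3.48-fold [1.82 to 7.34]) and Nop10 (2.14-fold [1.18 to 4.09]), which encode partners in the complex that converts uridine to pseudouridine. Of the genes listed as S6 kinases by their Rps6k symbols, 1 of 10 was called (10% [0.253 to 44.5]), namely Rps6ka5 (1.43-fold [0.880 to 2.39]). Which of these kinases act on the Rps6 protein was not considered. Fau, which encodes a ribosomal protein fused to a ubiquitin-like domain, and Rack1, a scaffold on the small subunit, lie outside the symbol rule, and both had a KCl island. Fau had 48 IP and 10 control reads (3.01-fold [1.51 to 6.68]) at an island outside the gene. Rack1 had 57 IP and 24 control reads (1.49-fold [0.911 to 2.51]). Of 7 paralogs excluded by their suffix, Rpl22l1 (1.72-fold [1.05 to 2.91]) and Rpl7l1 (1.45-fold [0.901 to 2.39]) were called.

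Processed pseudogenes of ribosomal proteins share much of the parents' coding sequence but usually lack their promoters. Of 318 annotated ribosomal protein pseudogenes, 11 (3.46% [1.74 to 6.10]) had a KCl island within 2 kb of an end and 0 had a basal one. Of 9944 pseudogenes of all families, 2.97% had a KCl island. Those annotated as transcribed were left out of the 9944 but not of the 318. The share of the 82 members was 37.8%, or 40.3% without the 5 retrocopy names, well outside the pseudogenes' interval. Such a gap was not particular to the family, with 25.2% of all protein-coding genes called beside that 2.97% of pseudogenes. In 2 of the 11, Rpl37a-ps2 (3.36-fold) and Rpl18-ps1 (3.30-fold), the island overlapped the pseudogene itself. How reads that match both a gene and its copies were placed is not given in the sources used here, and the part of such reads in the members' counts was not tested.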

How the data were processed

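Each IP sample had an island list, and no separate input file was used here. Groups came from the sample titles. The submitters' processing notes name BWA, SICER 1.0 and the build mm10 (GRCm38), and the deposited tables are named for windows of 200 bp, gaps of 600 bp and FDR 0.01. For each island the authors deposited a raw count of IP reads and of control reads, a p-value, an FDR and a fold, as the ratio of IP over control. The fold was checked against both counts. It equals IP over control divided by 1 constant per list (1.59 for KCl, 0.880 for basal), within 0.1%, at 20923 of 20923 KCl and 710 of 710 basal islands with control reads.

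Coordinates were converted to 1-based positions. A gene was called when an island overlapped, by at least 1 bp, a window of 2 kb to either side of a gene end. Own code (Python 3.11.15, scipy 1.17.1), tested on simulated data, gave the same 5512 KCl and 90 basal genes as bedtools 2.31.1. Gene ends came from RefSeq (GRCm38.p6), and strand and promoters from RefSeq windows of 300 bases, which matched 61 of 82 members by gene ID. Shares have exact (Clopper-Pearson) 95% intervals. Fold intervals come from the exact binomial interval of IP among IP and control reads and cover counting error only. All genes, genes in the members' length range and a share weighted by length decile serve as background.

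The members and lists were chosen with earlier results of these data known. Named by rule were the 10 members with the largest and the 6 with the smallest KCl fold, the 4 widest islands, members with basal islands, up to 30 without a KCl island, and up to 3 genes per list. Other members named, and the promoter classes, were chosen after their values were seen. Alternatives varied distance, region, FDR, fold, overlap, list length, members and the CpG ratio of the promoter class, with its GC limit held. Values of a few single genes are not reported here, and 1 called member is left out of the plot of folds.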

Additional observations from a re-analysis of the deposited data

How the results depend on the processing

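Stricter thresholds gave lower counts of members and of all genes. With an FDR of at most 1e-05, 14 of 82 members kept a KCl island (all genes 15.1%), and with at least 2-fold 10 did (all genes 8.74%). At that FDR the member share lay near that of all genes and above that of genes in the length range. The median fold was 2.14 at that FDR. When the KCl list was shortened to the 711 islands of the basal list, 0 members were called by p (all genes 0.114%) and 0 by fold (all genes 0.0685%), where the basal list called 1. The basal count was 2 at 5 kb and 2 for the gene body with 10 kb. A KCl island lay within 500 bp of the far end in 6 members, within 1 kb in 8 and within 2 kb in 13. Members with no other coding gene within 5 kb numbered 20, of which 5 had a KCl island (25%, such genes in the length range 10.1%). In all, 24 of 35 alternatives left the value within 1.5 times the reported count or within the interval of the median fold, and 11 did not. Among the 24 are those without retrocopy names or chromosome X. These could not change a count, since none of the members left out had an island at an end. Leaving out retrocopy names or chromosome X, and the other promoter thresholds, were chosen after seeing the data. No paired analysis was possible because each condition has 1 IP library, and no replicate could be left out. Depth per library is unknown, so a missing call does not show a missing site.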

Other observations

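Because both islands at Rps29 covered the 7SL RNA gene Rn7s1, other genes of RNA polymerase III were looked up after that value was seen, with islands within 500 bp. The second 7SL gene, Rn7s2, had a KCl island (88 IP and 28 control reads, 1.97-fold [1.28 to 3.14]) and no basal one. KCl islands also stood at Rn7sk, the RNA of the complex that holds P-TEFb inactive (2.17-fold [1.37 to 3.58]), at the vault RNA gene Vaultrc5 (1.96-fold [1.12 to 3.61]), at the Y RNA gene Rny1 (1.65-fold [1.07 to 2.61]) and at Rmrp (1.53-fold [0.986 to 2.42]). No KCl island was called at Rpph1 or Rny3. Of these 8 genes, Rn7s1 was the only one with a basal island. Within 500 bp of a gene end, 22.4% of all protein-coding genes had a KCl island and 0.288% a basal one. No share over small RNA genes at large was taken, so these calls are values of single genes picked by hand.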
